A study of Mus musculus with 16 samples.

Results

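The glutathione and redox defence genes are the protein-coding mouse genes of the glutathione S-transferase, microsomal glutathione S-transferase, glutathione peroxidase, peroxiredoxin and thioredoxin reductase families, with Nqo1, Hmox1, Gclc, Gclm, Gss, Gsr, Srxn1, Nfe2l2 and Keap1. Membership was set by gene symbol and biotype, with earlier results of these data known, and 51 of the 55487 genes counted met the rule. Of the 51, 46 passed the filter on low counts and were tested. The other 5, Gpx5, Gpx6, Gsta1, Gsta2 and Gstt4, had at most 6 reads in any sample.

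RNA was sequenced from 16 samples of mouse mammary organoids, small epithelial structures grown from tissue cells in culture. There were 3 WT samples, 4 with the PIK3CA mutation, 4 with the HER2 mutation and 5 double mutants with both. The series title names the changes as HER2 V777L and PIK3CA H1047R, which are activating cancer mutations of a receptor tyrosine kinase and of the catalytic subunit of phosphoinositide 3-kinase. The source of WT organoids was normal breast and that of every mutant was breast tumor, so genotype and source cannot be told apart in any comparison with WT. The promoter or Cre that carried the mutations, strain, age and sex are not given in the sources used here. All genotypes shared a medium with 125 µM N-acetyl-cysteine, which supplies cysteine for glutathione and is itself an antioxidant, and with 50 ng/ml EGF.

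Glutathione is a tripeptide made by glutamate-cysteine ligase (Gclc and Gclm) and glutathione synthetase (Gss), and returned to its reduced form by glutathione reductase (Gsr). Glutathione peroxidases use it to reduce peroxides, and glutathione S-transferases couple it to reactive molecules. Peroxiredoxins reduce peroxides in parallel, with electrons from thioredoxin and the thioredoxin reductases. The transcription factor NRF2 (Nfe2l2), held low by KEAP1, binds antioxidant response elements beside many of these genes, and Nqo1 and Hmox1 are its classical targets.

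Total counts per sample were 45545182 to 64168308, so 3 reads corresponded to 0.0477 to 0.0668 CPM (reads scaled for library size by the TMM method). The redox genes held 0.252% to 0.372% of all counts. Erbb2, which encodes HER2, had mean values of 156 CPM in WT, 168 in PIK3CA mutants, 3600 in HER2 mutants and 2031 in double mutants. All 8 luminal epithelial markers were above the 3-read limit in each genotype. Summed fibroblast markers (9 genes) were 369 to 1976 CPM in WT, 68.7 to 496 in PIK3CA mutants, 36.0 to 651 in HER2 mutants and 28.0 to 61.8 in double mutants. Summed myeloid markers (10 genes) were 1178 to 4377 CPM in WT and 240 to 773 in the mutants, where Cd14 was the largest contributor except in HER2 replicate 1, where Lyz2 was. Of the myeloid markers, only Adgre1 and Itgam had group means at or under the limit in the double mutants. Csf1r and Cd68, on the same list, were above the limit in every double mutant. Adgre1 and Itgam were also at or under it in PIK3CA replicate 2 and in HER2 replicates 3 and 4. In such bulk samples, fewer cells of a type and less RNA per cell cannot be told apart. The labels do not say whether samples of a genotype came from separate mice or cultures, so p-values measure the spread between these samples.

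The start regions of the genes were searched for the core letters of the antioxidant response element, TGACNNNGC, on both strands. The window was 300 bases, 250 before and 50 after each RefSeq start (GRCm38.p6), and 45 of the 51 genes had one. The letters occurred in 9 of the 45 genes (20%) and in 3781 of 27025 genes overall (14.0%). The 9 were Gclm, Gsta3, Gstm5, Gstm7, Mgst1, Nfe2l2, Prdx1, Srxn1 and Txnrd1, and a match describes letters, not binding. The stretches shown, chosen after the values were seen except for Gstm7, are from 3 genes whose expression changed in some comparison (Gstm7, Gsta3 and Prdx1) and 3 that did not pass in any (Gclm, Txnrd1 and Nfe2l2). Each has 10 bases on either side of the match, which is in capitals, and runs 5′ to 3′ on the gene's strand. Those of Gstm7, Gsta3 and Prdx1 are at chr3:107931725-107931753 (minus strand, first base of the match at position -129), chr1:21240454-21240482 (plus strand, first base of the match at position -121) and chr4:116685456-116685484 (plus strand, first base of the match at position -133). Those of Gclm, Txnrd1 and Nfe2l2 are at chr3:122245413-122245441 (plus strand, first base of the match at position -134), chr10:82859104-82859132 (plus strand, first base of the match at position -92) and chr2:75704885-75704913 (minus strand, first base of the match at position -240). RefSeq starts can differ from the outermost GENCODE start of a gene. The Gstm7 stretch lies in an annotated exon of that gene, the Txnrd1 stretch lies inside the span of Txnrd1 (chr10:82833951-82897712), before an inner start, and the Nfe2l2 stretch lies in an exon of E030042O20Rik.
Gstm7: tctgaagaccTGACAAAGCgaagccaatc
Gsta3: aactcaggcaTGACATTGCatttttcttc
Prdx1: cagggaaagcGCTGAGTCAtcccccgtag
Gclm: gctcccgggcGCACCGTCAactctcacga
Txnrd1: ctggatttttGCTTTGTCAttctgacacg
Nfe2l2: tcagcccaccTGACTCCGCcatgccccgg

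Levels differed widely between the genes. Per kilobase of exon, Gpx4, which reduces lipid peroxides, had 209 ± 37.6 CPM in WT (SD, n = 3) and Gpx1, the main cytosolic peroxidase, had 208 ± 4.72. The membrane transferase Mgst1 had 190 ± 67.1, Gstm1 156 ± 16.5, Nqo1 130 ± 27.6 and Hmox1 104 ± 49.6 CPM per kilobase in WT (SD, n = 3). The ranges of Gpx4, Gpx1 and Mgst1 overlapped, as did those of Nqo1 and Hmox1. Gpx4 and Gstm1 share 34.7% and 18.9% of their 50-base stretches with other genes, while Gpx1, Mgst1, Nqo1 and Hmox1 share none. Nfe2l2 had 30.2 ± 2.32, Keap1 12.8 ± 0.267 and Gss 2.28 ± 0.321 CPM per kilobase (SD, n = 3). In HER2 mutants Nqo1 had 20.8 ± 14.5 CPM per kilobase (SD, n = 4), below all 3 WT samples.

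A gene was called where its edgeR quasi-likelihood p, adjusted with the Benjamini-Hochberg method over the 24252 genes tested, was under 0.05. Against WT, 4 of the 46 redox genes were called in PIK3CA mutants (3 higher, 1 lower), beside 4.52% of all genes. In HER2 mutants 9 were called (3 higher, 6 lower), beside 10.4% of all genes, and in double mutants 3 (2 higher, 1 lower), beside 11.8%. Between the double and HER2 mutants 3 were called (1 higher, 2 lower), beside 2.50% of all genes. Between the double and PIK3CA mutants 1 was called, lower, beside 0.672%, and between HER2 and PIK3CA mutants 4 (2 higher, 2 lower), beside 4.41%. The called share of the redox genes lay between 2.17% and 19.6% in these 6 comparisons. Their median log2 change was -0.08 for PIK3CA mutants minus WT, -0.02 for HER2 mutants minus WT and -0.03 for double mutants minus WT, beside -0.03, 0.03 and 0.01 for all genes. In all, 13 of the 46 were called in at least 1 of these comparisons and 33 in none. The comparisons with WT share the same 3 WT samples.

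**Figure D1:**
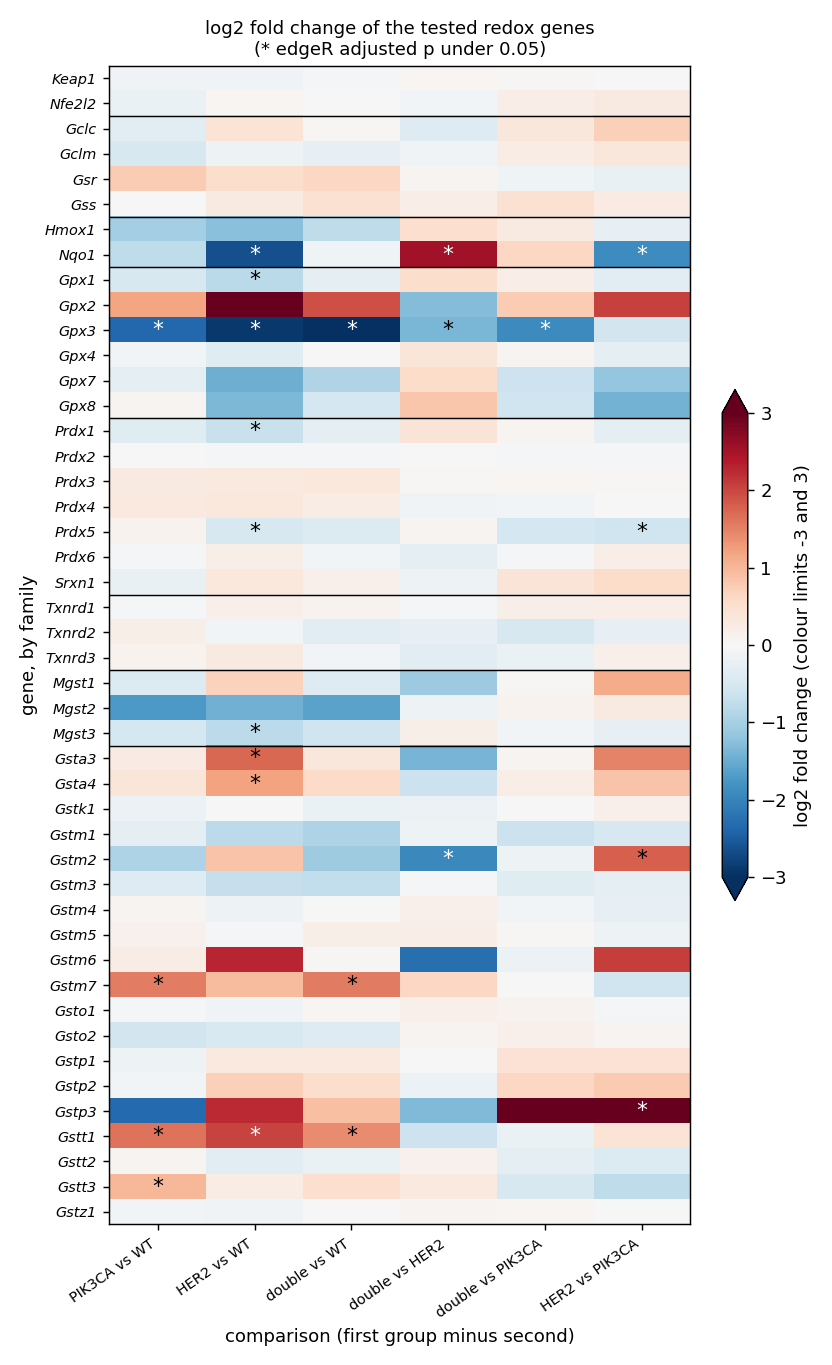
Log2 change (colour, limited to -3 and 3) of the 46 tested redox genes in the 6 pairs of genotypes, with genes ordered by family and stars where the adjusted p from edgeR was under 0.05. Gpx3 is starred in 5 of the 6 columns and Nqo1 in 3, while the rows of Nfe2l2, Keap1 and the glutathione synthesis genes hold no star.

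Nfe2l2 and Keap1, the regulator and its inhibitor, were not called in any comparison. Nfe2l2 had 122, 105 and 116 CPM in WT, 87.8, 99.4, 96.6 and 112 in PIK3CA mutants, 152, 132, 134 and 62.3 in HER2 mutants, and 99.3, 148, 130, 93.2 and 92.9 in double mutants. The groups overlapped, and HER2 replicate 4 was the lowest of all. Its log2 change from WT was -0.21 with PIK3CA (SE 0.24), 0.07 with HER2 (SE 0.241) and -0.02 with both mutations (SE 0.23). Keap1 lay between 48.7 and 64 CPM in all 16 samples, with log2 changes against WT of -0.10, -0.11 and -0.06. NRF2 is regulated mainly through the stability of its protein, which was not measured.

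The enzymes that make and recycle glutathione were not called in any comparison of the fit of all samples, but 3 of them were in other fits. Gclm, the modifier subunit of the rate-limiting ligase, had 66.3, 73.8 and 80.9 CPM in WT and 53.6, 53.2, 48.4 and 56.1 in PIK3CA mutants. All 4 PIK3CA mutants lay below WT, with a log2 change of -0.48 (SE 0.143, adjusted p 0.0726 by edgeR), which missed the threshold. It passed with DESeq2 (adjusted p 0.0465) and with edgeR on only these genotypes (adjusted p 0.0086). Gclc, the catalytic subunit, ranged from 30.6 CPM in HER2 replicate 4 to 111 in HER2 replicate 2, so that the spread within that genotype covered all other samples. Gss, the second synthesis enzyme, had log2 changes from WT of 0.02 with PIK3CA, 0.26 with HER2 and 0.46 with both mutations (adjusted p 0.981, 0.417 and 0.117 by edgeR), the last called without double mutant replicate 2 (adjusted p 0.0273 by edgeR). Its exons overlap those of Acss2, and 10.3% of its 50-base stretches also occur in other genes. Gsr had 61.0, 62.0 and 65.9 CPM in WT, 93.8, 121, 103 and 109 in PIK3CA mutants, 32.5, 212, 87.8 and 32.8 in HER2 mutants, and 62.0, 70.1, 192, 81.9 and 79.6 in double mutants. All PIK3CA mutants lay above WT (log2 change 0.76, SE 0.533, adjusted p 0.524 by edgeR), a change called in a fit of only these genotypes (adjusted p 0.0017 by edgeR). HER2 mutants lay on both sides of WT.

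Nqo1 encodes the NAD(P)H quinone reductase, a standard readout of NRF2, and lies at chr8:107388225-107403206 on the minus strand (mm10). It had 182, 252 and 174 CPM in WT, 125, 99.3, 137 and 119 in PIK3CA mutants, 24.0, 31.1, 63.8 and 10.6 in HER2 mutants, and 241, 181, 165, 180 and 163 in double mutants. Every HER2 mutant lay below every sample of the other genotypes, while double mutants overlapped WT. In HER2 mutants Nqo1 was 6.25-fold lower than in WT (log2 change -2.64, SE 0.389, adjusted p 0.00116 by edgeR). Compared with HER2 mutants, double mutants had 5.75-fold more Nqo1 (log2 change 2.52, SE 0.363, adjusted p 0.00306 by edgeR). HER2 mutants were also lower than PIK3CA mutants (log2 change -1.89, SE 0.365, adjusted p 0.00993 by edgeR). Double mutants did not pass against WT (log2 change -0.12, SE 0.362, adjusted p 0.865 by edgeR), nor did PIK3CA mutants (-0.75, SE 0.378, adjusted p 0.331 by edgeR, but 0.0117 in a fit of only these genotypes).

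Nqo1 changed with the PIK3CA mutation by a different amount in HER2 mutant than in WT organoids. The interaction, the PIK3CA change in HER2 mutant organoids minus that in WT organoids on the log2 scale, was 3.27 for Nqo1 (SE 0.516, adjusted p 0.0089 by edgeR). WT enters this term, and with it the difference in source. The 3 pairwise calls and the interaction held in every fit that left out 1 sample. Each pairwise call was lost in a fit of only the genotypes compared (adjusted p 0.0506, 0.0589 and 0.0702 by edgeR). Milk-protein and other alveolar markers (8 genes) summed to 6400 to 49335 CPM in HER2 mutants, 3521 to 5740 in WT, 9001 to 14985 in PIK3CA mutants and 7275 to 23270 in double mutants. Basal markers (9 genes) summed to 265 to 974 CPM in HER2 mutants, 515 to 1059 in WT, 525 to 1395 in PIK3CA mutants and 566 to 1041 in double mutants. The part of these markers in the values of Nqo1 was not tested.

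**Figure D2:**
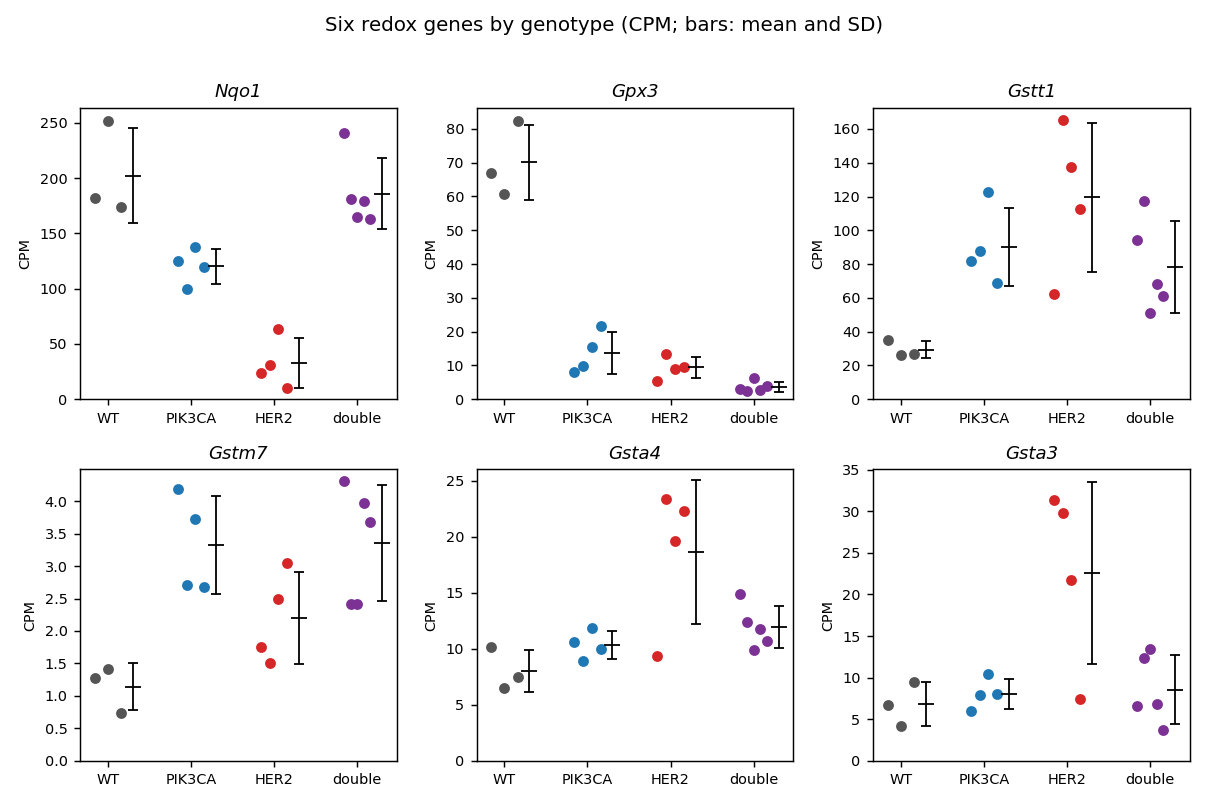
CPM of Nqo1, Gpx3, Gstt1, Gstm7, Gsta4 and Gsta3 (vertical axes from 0) in each sample, by genotype, with bars for the mean and SD. The 4 HER2 mutants, at 10.6 to 63.8 CPM of Nqo1, lie below all others, and the 3 WT samples, at 60.9 to 82.2 CPM of Gpx3, lie above all others.

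Hmox1, the haem oxygenase that is also an NRF2 target, was not called in any comparison. It had 95.8, 180 and 270 CPM in WT, 59.6, 73.3, 43.5 and 181 in PIK3CA mutants, 56.3, 108, 97.2 and 40.7 in HER2 mutants, and 110, 160, 167, 68.6 and 34.4 in double mutants. The groups overlapped, and WT replicate 3 was the highest of all. Its log2 change from WT was -1.02 with PIK3CA (SE 0.548), -1.26 with HER2 (SE 0.549) and -0.75 with both mutations (SE 0.519). That WT sample also had the highest myeloid sum, 4377 CPM. Macrophages express Hmox1, and the part of the myeloid markers in these values was not tested.

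**Figure D3:**
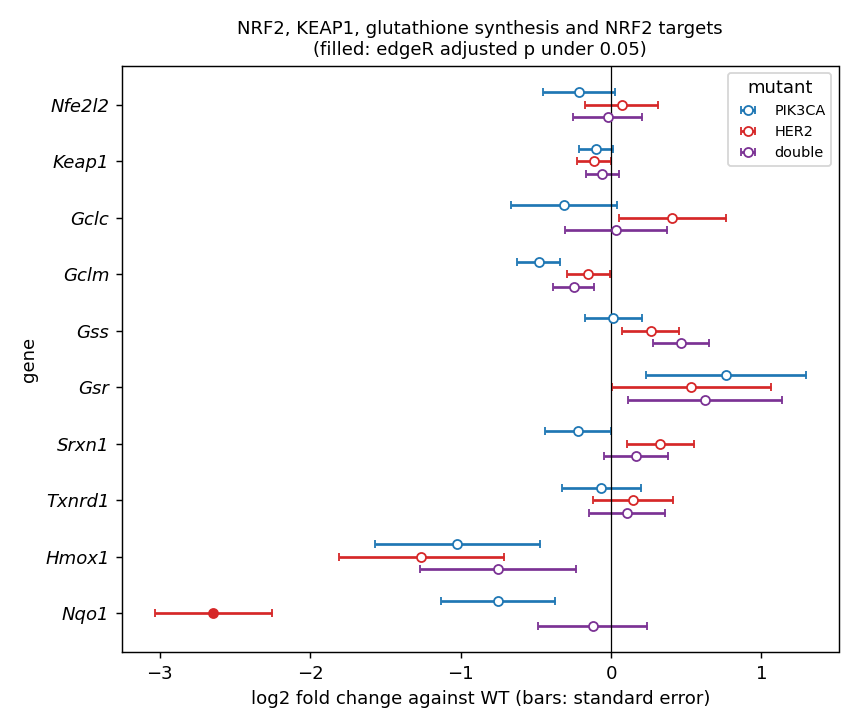
Log2 change against WT with its standard error for Nfe2l2, Keap1, the glutathione synthesis and recycling genes and NRF2 targets in PIK3CA, HER2 and double mutants, filled where the adjusted p from edgeR was under 0.05. The only filled point is Nqo1 in HER2 mutants, at -2.64.

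To show a gene whose PIK3CA change differed between backgrounds, the sequence before the start of Nqo1 is given, chosen after the values were seen. It runs 5′ to 3′ on the minus strand up to the annotated exons, at chr8:107403207-107403455. Capitals mark GGGCGG, the GC box core bound by SP1, and TATAAA, the TATA box, each on either strand, with 3 matches in all. Over all windows of 300 bases, GGGCGG occurred in 38.2% of genes and TATAAA in 15.7%, beside 66.7% and 17.8% of the redox genes with a window. The letters TGACNNNGC were not in the Nqo1 window.
Nqo1: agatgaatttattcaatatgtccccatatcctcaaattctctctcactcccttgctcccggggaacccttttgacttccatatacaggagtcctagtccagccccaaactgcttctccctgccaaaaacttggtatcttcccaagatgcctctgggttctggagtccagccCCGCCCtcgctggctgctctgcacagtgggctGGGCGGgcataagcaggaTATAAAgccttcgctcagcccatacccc

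The glutathione peroxidases held the member with the most calls. Gpx3 encodes the secreted plasma peroxidase and lies at chr11:54902453-54910377 on the plus strand (mm10). It had 67.1, 60.9 and 82.2 CPM in WT, 7.95, 9.69, 15.4 and 21.6 in PIK3CA mutants, 5.51, 13.4, 9.08 and 9.60 in HER2 mutants, and 3.09, 2.56, 6.28, 2.59 and 3.79 in double mutants. All mutants lay below all WT samples, and all double mutants below all PIK3CA mutants, whereas double and HER2 mutants overlapped. Against WT, Gpx3 was 5.13-fold lower in PIK3CA mutants (log2 change -2.36, SE 0.372, adjusted p 0.00173 by edgeR) and 7.46-fold lower in HER2 mutants (-2.90, SE 0.378, adjusted p 0.000633 by edgeR). In double mutants it was 19.1-fold lower (log2 change -4.26, SE 0.365, adjusted p 1.84e-05 by edgeR). The calls of Gpx3 against WT held under every alternative run. Double mutants were also lower than HER2 mutants (log2 change -1.36, SE 0.327, adjusted p 0.0413 by edgeR) and PIK3CA mutants (-1.90, SE 0.329, adjusted p 0.0211 by edgeR). Each of these last calls was lost in 6 of 9 fits that left out 1 sample and with a replicate block. The call against HER2 mutants was also lost in a fit of only double and HER2 mutants. The interaction of Gpx3 was 1.00 (SE 0.491, adjusted p 0.398 by edgeR).

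Fibroblast and myeloid markers were lower beside Gpx3. Of 9 fibroblast markers, 1, 2 and 8 were called lower than in WT in PIK3CA, HER2 and double mutants, and of 10 myeloid markers, 8, 6 and 8. WT replicate 1 had a fibroblast sum of 369 CPM, a myeloid sum of 2501 CPM and 67.1 CPM of Gpx3. PIK3CA replicate 4 had sums of 496 and 612 CPM and 21.6 CPM of Gpx3, and HER2 replicate 4 had 651, 274 and 9.60 CPM. No mutant reached the WT myeloid sums. The part of either marker list in the change of Gpx3 was not tested.

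**Figure D4:**
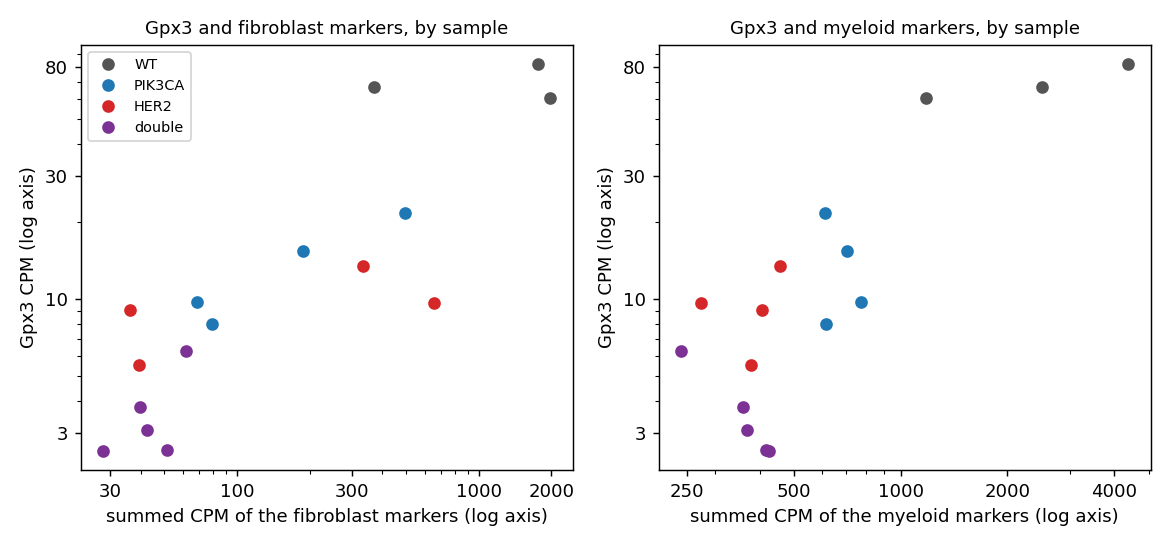
Gpx3 CPM (vertical) against the summed CPM of fibroblast markers (left) and myeloid markers (right), 1 point a sample, coloured by genotype, on log axes. WT replicate 1 lies within the fibroblast range of the mutants, at 369 CPM, and its Gpx3 is above all mutants; on the myeloid axis WT and mutants are separate.

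Gpx1 was called for HER2 mutants against WT and in no other comparison of the fit of all samples. It had 293, 303 and 305 CPM in WT, 233, 222, 207 and 200 in PIK3CA mutants, 229, 131, 183 and 144 in HER2 mutants, and 356, 211, 160, 264 and 252 in double mutants. Every single mutant lay below WT, and double mutants lay on both sides. The log2 change against WT in HER2 mutants was -0.81 (SE 0.222, adjusted p 0.0317 by edgeR), lost in 6 of 7 fits without 1 sample and in a fit of only HER2 mutants and WT. Gpx2, a peroxidase of epithelia, spread widely within a genotype, with 151, 4.90, 32.1 and 2.95 CPM in HER2 mutants and 6.47, 4.68 and 4.19 in WT. All PIK3CA mutants (8.02 to 15.8 CPM) and all double mutants (9.24 to 32.2 CPM) lay above WT, and the comparison of HER2 mutants with WT missed the threshold (log2 change 3.22, SE 1.00, adjusted p 0.052 by edgeR). Gpx4 was not called, at log2 changes against WT of -0.09, -0.36 and -0.01. Gpx7 and Gpx8, which act in the endoplasmic reticulum, were at most 3.0 CPM in every sample and were not called.

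Among the peroxiredoxins and sulfiredoxin, 2 of 7 were called, both lower in HER2 mutants. Prdx1, an abundant cytosolic peroxiredoxin, had 313, 243 and 321 CPM in WT, 243, 243, 208 and 211 in PIK3CA mutants, 201, 205, 208 and 124 in HER2 mutants, and 330, 229, 183, 230 and 231 in double mutants. HER2 mutants lay below WT (log2 change -0.66, SE 0.199, adjusted p 0.0449 by edgeR). Prdx5, found in mitochondria, peroxisomes and cytosol, had 47.9, 48.4 and 52.3 CPM in WT, 50.2, 54.3, 53.9 and 56.0 in PIK3CA mutants, 36.9, 30, 33.8 and 40.4 in HER2 mutants, and 46.7, 41.8, 32.9, 32.6 and 32.4 in double mutants. HER2 mutants lay below both WT and PIK3CA mutants, without overlap. The log2 change of Prdx5 was -0.49 against WT (SE 0.146, adjusted p 0.043 by edgeR) and -0.60 against PIK3CA mutants (SE 0.136, adjusted p 0.0213 by edgeR). The calls against WT were lost in 5 of 7 fits without 1 sample for Prdx1 and in 6 of 7 for Prdx5, and both under upper-quartile scaling, without the filter, with a replicate block and when the fit held just HER2 mutants and WT. The call of Prdx5 against PIK3CA mutants was lost without PIK3CA replicate 2, 3 or 4 (adjusted p 0.0609, 0.0587 and 0.0599 by edgeR) and with a replicate block (adjusted p 0.0546 by edgeR). Prdx5 shares 15.5% of its 50-base stretches with Trmt112 on the opposite strand. Srxn1, which repairs overoxidised peroxiredoxins and is an NRF2 target, had log2 changes against WT of -0.22, 0.33 and 0.16 and was not called. The other peroxiredoxins were not called.

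**Figure D5:**
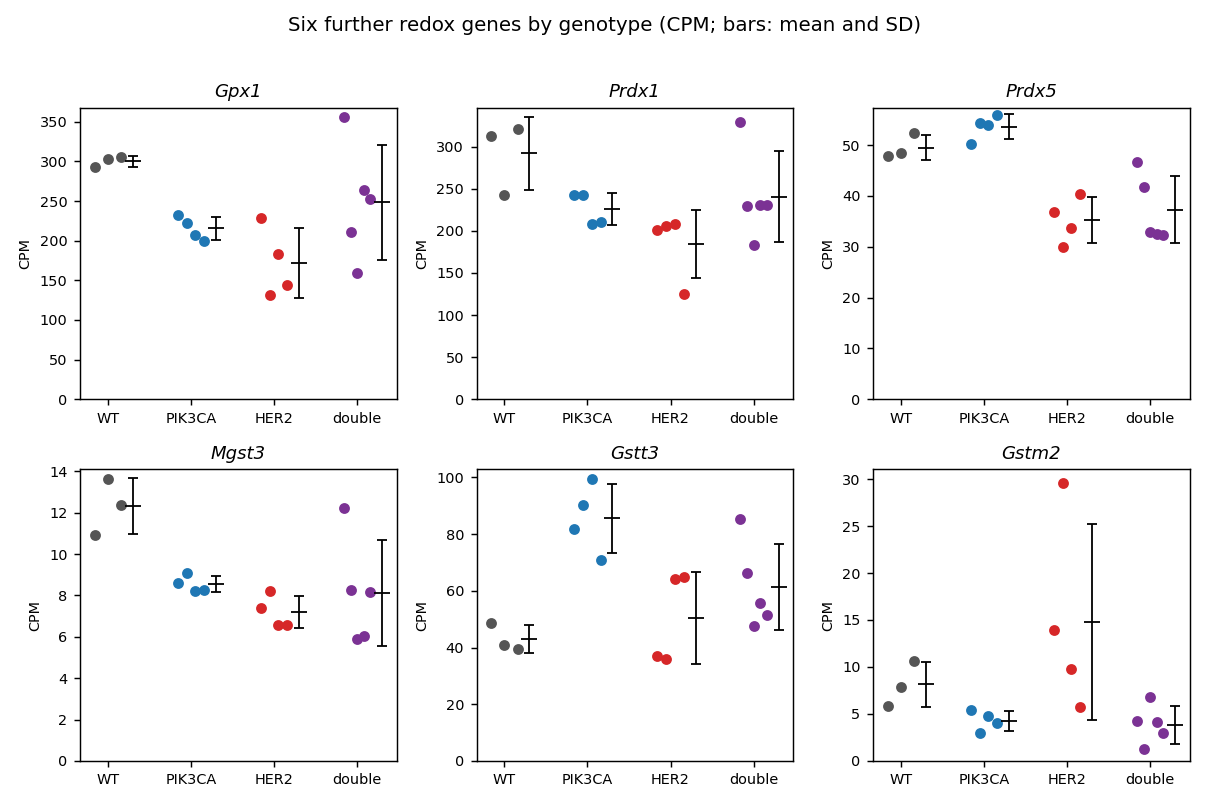
CPM of Gpx1, Prdx1, Prdx5, Mgst3, Gstt3 and Gstm2 (vertical axes from 0) in each sample, by genotype, with bars for the mean and SD. For Prdx5 the HER2 mutants, at 30 to 40.4 CPM, lie below WT and PIK3CA mutants.

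The 3 thioredoxin reductases were not called in any comparison. Txnrd1, the cytosolic enzyme and an NRF2 target, had 199, 141 and 208 CPM in WT, 155, 175, 164 and 205 in PIK3CA mutants, 162, 249, 265 and 132 in HER2 mutants, and 170, 263, 257, 151 and 144 in double mutants. The groups overlapped, with log2 changes against WT of -0.06 (SE 0.263), 0.15 (SE 0.264) and 0.11 (SE 0.253).

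Of the 22 soluble glutathione S-transferases, 19 were tested, and every call against WT was higher in the mutants. Gstt1, a theta-class transferase at chr10:75783813-75798584 on the minus strand (mm10), was called in all mutant genotypes. It had 35, 26.1 and 26.9 CPM in WT, 81.6, 87.9, 123 and 68.9 in PIK3CA mutants, 62.1, 165, 138 and 113 in HER2 mutants, and 94.0, 117, 50.9, 68.0 and 60.9 in double mutants. Every mutant lay above every WT sample, and the mutant genotypes overlapped. Gstt1 was 3.08-fold higher in PIK3CA mutants (log2 change 1.62, SE 0.331, adjusted p 0.00921 by edgeR) and 4.08-fold higher in HER2 mutants (2.03, SE 0.337, adjusted p 0.00228 by edgeR). In double mutants it was 2.67-fold higher (log2 change 1.42, SE 0.319, adjusted p 0.0087 by edgeR). The calls in PIK3CA and double mutants were lost without WT replicate 3 (adjusted p 0.0673 and 0.0571 by edgeR). The double mutant change was smaller than the sum of both single changes, with an interaction of -2.23 (SE 0.427, adjusted p 0.0209 by edgeR), lost without WT replicate 3 or PIK3CA replicate 3 and with a replicate block. As for Nqo1, WT enters this term, and with it the difference in source that all mutants share against WT. Over all genes 1.06% had a called interaction, and of the redox genes 2 of 46, Nqo1 and Gstt1.

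Gstm7, a mu-class transferase at chr3:107926334-107931817 on the minus strand (mm10), had 1.28, 1.42 and 0.734 CPM in WT, 4.18, 2.71, 3.72 and 2.68 in PIK3CA mutants, 1.75, 1.5, 2.49 and 3.05 in HER2 mutants, and 4.31, 2.41, 2.41, 3.97 and 3.68 in double mutants. Every mutant lay above WT. The log2 change was 1.54 in PIK3CA mutants (SE 0.338, adjusted p 0.0146 by edgeR), lost without WT replicate 3 (adjusted p 0.109 by edgeR), and 1.55 in double mutants (SE 0.328, adjusted p 0.00587 by edgeR). In HER2 mutants it missed the threshold (0.94, SE 0.332, adjusted p 0.0838 by edgeR). Its window held the response element letters, as TGACAAAGC.

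Gstt3, the neighbour of Gstt1, had 48.8, 40.7 and 39.4 CPM in WT, 81.7, 90.2, 99.6 and 70.9 in PIK3CA mutants, 36.9, 35.8, 64 and 65.0 in HER2 mutants, and 85.5, 66.4, 47.6, 55.6 and 51.4 in double mutants. PIK3CA mutants lay above WT (log2 change 0.99, SE 0.244, adjusted p 0.0275 by edgeR), a call lost in 6 of 7 fits without 1 sample and with a replicate block. It shares 12.5% of its 50-base stretches with other genes, mainly the read-through gene Gm20441.

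The alpha-class transferases Gsta3 and Gsta4, which act on lipid peroxidation products, were called in HER2 mutants. Gsta4 had 10.2, 6.50 and 7.51 CPM in WT and 9.34, 23.4, 19.6 and 22.3 in HER2 mutants. HER2 replicate 1 overlapped WT and the other 3 lay above it (log2 change 1.21, SE 0.272, adjusted p 0.0118 by edgeR). This call was lost without WT replicate 3 and in a fit of only HER2 mutants and WT. Gsta3 had 6.66, 4.2 and 9.53 CPM in WT and 31.3, 29.8, 21.7 and 7.41 in HER2 mutants. Here HER2 replicate 4 overlapped WT, and the log2 change was 1.73 (SE 0.49, adjusted p 0.0355 by edgeR), lost in 6 of 7 fits without 1 sample and in a fit of only HER2 mutants and WT. In PIK3CA and double mutants neither was called, with Gsta4 at 8.90 to 14.9 CPM and Gsta3 at 3.66 to 13.4 CPM.

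Gstm2 was called only in comparisons without WT. It had 5.87, 7.88 and 10.6 CPM in WT, 5.39, 2.95, 4.76 and 3.98 in PIK3CA mutants, 13.9, 29.6, 9.81 and 5.69 in HER2 mutants, and 4.2, 1.22, 6.75, 4.17 and 2.94 in double mutants. HER2 mutants lay above PIK3CA mutants (log2 change 1.79, SE 0.489, adjusted p 0.0497 by edgeR) and overlapped double mutants (double minus HER2 -1.94, SE 0.456, adjusted p 0.0378 by edgeR). These calls were lost in 6 of 8 and 5 of 9 fits without 1 sample. Both were also lost with limma on signal plus 0.5, with a replicate block and in a fit of only the genotypes compared. The call between HER2 and PIK3CA mutants was lost with limma on signal plus 1 as well. Gstp3, named after its values were seen since its level was below the naming limit, had 41, 32, 2 and 6 reads in HER2 mutants and 0, 0, 1 and 2 in PIK3CA mutants (adjusted p 0.0441 by edgeR). Gstp1 and Gstp2 share 33.7% and 54.3% of their 50-base stretches with other genes, so reads may be split between them, and neither was called. None of the other soluble transferases was called in any of the 7 comparisons at this depth.

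Of the microsomal transferases, Mgst3 was called. It had 10.9, 13.6 and 12.4 CPM in WT, 8.60, 9.09, 8.24 and 8.27 in PIK3CA mutants, 7.39, 8.19, 6.59 and 6.59 in HER2 mutants, and 12.3, 8.27, 5.91, 6.04 and 8.15 in double mutants. Both single mutants lay below WT without overlap, and HER2 mutants were called (log2 change -0.78, SE 0.22, adjusted p 0.0356 by edgeR), a call lost in 6 of 7 fits without 1 sample. That call was also lost without the filter, with a replicate block and in a fit of only HER2 mutants and WT. Mgst1 had 936, 415, 372 and 764 CPM in HER2 mutants, above all PIK3CA mutants (248 to 323 CPM), and missed the threshold in that comparison (log2 change 1.11, SE 0.318, adjusted p 0.0576 by edgeR). Mgst2, which also acts in leukotriene synthesis, had 11.7, 7.28 and 9.41 CPM in WT and 0.553 to 7.94 in the mutants, with log2 changes against WT of -1.71, -1.44 and -1.59 that missed the threshold (adjusted p 0.112, 0.119 and 0.0643 by edgeR).

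Wider lists of redox genes, 136 genes of which 135 were tested, were read in the same fit. NADPH is the electron source of glutathione and thioredoxin reductases, and 19 genes linked directly or indirectly to its supply were listed. Of these, 9 were higher in double mutants than in WT and 0 lower, beside 5.03% higher of all genes. G6pdx and Pgd of the pentose phosphate pathway were listed but not among the 9. In PIK3CA mutants 3 were higher, beside 1.49% of all genes, and in HER2 mutants 3, beside 4.75%, with none lower. The list's median log2 change in double mutants was 0.50, beside 0.01 for all genes. Tkt, the transketolase of the pentose phosphate pathway, had 532 to 589 CPM in WT, 656 to 751 in PIK3CA mutants, 418 to 581 in HER2 mutants and 887 to 997 in double mutants. It was higher in double mutants than in WT (log2 change 0.74, SE 0.124, adjusted p 0.00121 by edgeR) and than in HER2 mutants (0.91, SE 0.113, adjusted p 0.00118 by edgeR). Malic enzyme Me1 was higher in PIK3CA mutants (log2 change 1.35, SE 0.26, adjusted p 0.0062 by edgeR) and in double mutants (1.03, SE 0.248, adjusted p 0.013 by edgeR).

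Of 20 genes of cysteine and glutathione supply and turnover, 3 were called against WT in PIK3CA mutants (2 higher, 1 lower), 7 in HER2 mutants (2 higher, 5 lower) and 5 in double mutants (2 higher, 3 lower), beside 4.52%, 10.4% and 11.8% of all genes. Cndp2, which splits cysteinylglycine, was lower in all mutants, with log2 changes of -1.14, -1.01 and -0.77 (adjusted p 0.00119, 0.00194 and 0.00389 by edgeR). Its interaction, 1.37 (SE 0.216, adjusted p 0.0089 by edgeR), was called as well, and WT enters that term, with the difference in source. Oplah, which returns 5-oxoproline to glutamate, was lower in HER2 mutants (-0.67, adjusted p 0.012 by edgeR) and double mutants (-0.95, adjusted p 0.000604 by edgeR). The neutral amino acid transporter Slc1a4 was higher in all mutants, at 0.80, 0.95 and 0.64 (adjusted p 0.0324, 0.00946 and 0.0427 by edgeR).

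Among 12 superoxide and catalase genes, 3 were lower in PIK3CA mutants, 2 lower and 2 higher in HER2 mutants, and 3 lower in double mutants, beside 3.03%, 5.63% and 6.72% of all genes called lower and 4.75% called higher in HER2 mutants. Extracellular superoxide dismutase Sod3 had 4.56 to 26.3 CPM in WT, 0.0826 to 1.13 in PIK3CA mutants, 1.06 to 3.38 in HER2 mutants and 0.157 to 0.739 in double mutants. It was called lower in all of them (adjusted p 0.00252, 0.0354 and 0.000608 by edgeR). Cybb, the phagocyte oxidase subunit, had 18.2 to 70.7 CPM in WT and 0 to 0.0924 in double mutants, and moved with the myeloid markers, whose part was not tested. Duox2, an epithelial enzyme that makes hydrogen peroxide, was higher in HER2 mutants, at 0.675 to 15.2 CPM, than in PIK3CA mutants, at 0.186 to 0.334 (log2 change 4.31, SE 0.804, adjusted p 0.00846 by edgeR).

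Of 24 other NRF2 targets, 1 was higher and 2 lower than WT in PIK3CA mutants, 1 and 3 in HER2 mutants, and 1 and 4 in double mutants. Over all genes, 1.49% were higher and 3.03% lower in PIK3CA mutants, 4.75% and 5.63% in HER2 mutants, and 5.03% and 6.72% in double mutants. Ephx1, the microsomal epoxide hydrolase, was the higher gene each time, at 90.5 to 98.9 CPM in WT, 164 to 190 in PIK3CA mutants, 133 to 285 in HER2 mutants and 169 to 246 in double mutants. Its log2 changes were 0.87, 0.98 and 1.15 (adjusted p 0.0346, 0.0125 and 0.00295 by edgeR). Akr1c18 and Fth1 were called lower in every mutant genotype. Akr1c18 had 0.227 to 2.14 CPM in WT and at most 0.154 in any mutant. Abcc3 was called lower in double mutants (log2 change -2.74, SE 0.583, adjusted p 0.00613 by edgeR). The retinal dehydrogenase Aldh1a1 had 2.15 to 5.17 CPM in WT, 0.0886 to 0.859 in PIK3CA mutants, 0 to 0.0409 in HER2 mutants and 0 to 1.29 in double mutants. It was called lower in HER2 mutants (adjusted p 0.00388 by edgeR), all of which were under the 3-read limit.

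Of 17 thioredoxin and glutaredoxin partners, none was called in PIK3CA mutants, 2 were higher and 2 lower in HER2 mutants, and 2 higher and 1 lower in double mutants. The shares of all genes called in either direction, 4.52%, 10.4% and 11.8%, also stand beside the remaining lists. The sestrins Sesn2 and Sesn3 moved in opposite directions. Sesn2 rose in HER2 mutants (log2 change 0.81, SE 0.208, adjusted p 0.0227 by edgeR) and double mutants (1.35, SE 0.206, adjusted p 0.000677 by edgeR), and Sesn3 fell in both (-1.56 and -1.18, adjusted p 0.00143 and 0.00279 by edgeR). Of 17 genes of selenoprotein synthesis and the small selenoproteins, 0 were called in PIK3CA mutants and 1, lower, in each of the other genotypes, the selenium carrier Selenop. It had 194 to 292 CPM in WT, 96.0 to 146 in PIK3CA mutants, 24.5 to 67.8 in HER2 mutants and 23.6 to 97.9 in double mutants. Several glutathione peroxidases contain selenium. Sod3, Selenop and Slc40a1 are also expressed by stromal or myeloid cells, and the part of the marker values given above in their changes was not tested. Of 16 NRF2 partners and regulators, Ahr was higher in PIK3CA mutants (1.51, adjusted p 0.0162 by edgeR), Mafg in HER2 mutants (0.66, adjusted p 0.022 by edgeR), and none in double mutants. Of 11 tested ferroptosis defence genes, the iron exporter Slc40a1 was lower in HER2 mutants (-1.20, adjusted p 0.0162 by edgeR) and double mutants (-1.48, adjusted p 0.00221 by edgeR), and none was called in PIK3CA mutants.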

How the data were processed

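Libraries were made with a SMARTer mRNA-seq kit from 1.3 ug of total RNA, per the labels' protocols. The submitters' processing notes name bcl2fastq 2.20, STAR 2.0.4b, Subread, featureCounts 1.4.5, DESeq2 1.33.5 and the mm10 build, without their roles; strandedness is not given in the sources used here. The authors deposited whole-number counts per gene and, separately, normalized signal values, which were checked to be the count over a DESeq2 size factor within 5.49e-10. Of 55774 entries, 287 identical repeats were dropped.

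The counts were fitted with edgeR 4.0.16 in R 4.3.3 (filterByExpr, TMM, glmQLFit and glmQLFTest, two-sided, all 16 samples, genotype only), which tested 24252 genes with Benjamini-Hochberg adjustment. The script was tested on simulated counts. The SE is the absolute log2 fold change over the square root of F. CPM are TMM-scaled. Positions and exon lengths are from GENCODE M21, and sequences from RefSeq GRCm38.p6. Alternatives were DESeq2 1.42.0, limma 3.58.1 on log2 of the deposited signal plus 1 or 0.5, other scalings, no filter, a replicate block, only the groups compared, and each sample left out.

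The genes and lists were chosen with earlier results of these data known. Named genes were 10 core genes and every gene called in a comparison with a mean log2 CPM of at least 1, and of each wider list at most 4 genes with the smallest adjusted p. G6pdx, Pgd and Fth1 were named besides, without values. Gpx2, Gpx4, Gpx7, Gpx8, Gstm1, Gstp1, Gstp2, Gstp3, Mgst1 and Mgst2 fell outside this rule and were also described, with their values known.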

Additional observations from a re-analysis of the deposited data

Results flagged for a closer look

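The PIK3CA change differed between HER2 mutant and WT organoids, by the interaction test of edgeR, for Nqo1 (3.27 on the log2 scale, edgeR adjusted p 0.0089) and Gstt1 (-2.23, edgeR adjusted p 0.0209). WT enters both terms, and with it the difference in source between normal breast and tumor.

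Groups of 4 or 5 samples were checked for the named genes outside the wider lists. Among these 63 groups, 5 held a sample far from the others by Dixon's ratio, where chance gives about 1 in 20. Nfe2l2 in HER2 replicate 4 was 62.3 CPM, and the next sample of that genotype was at 132. Prdx1 in the same sample was 124 CPM, with the next at 201. Nqo1 in double mutant replicate 1 was 241 CPM, with the next at 181. Gsr in double mutant replicate 3 was 192 CPM, with the next at 81.9. Gss in double mutant replicate 2 was 12.2 CPM, with the next at 18.3.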

How the results depend on the processing

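Under the alternatives, single genes were read only for the named genes of the opening rule, and the calls of the wider lists were not checked. Of 25 calls of these named redox genes, 6 held under every alternative run. They were Gpx3 against WT in all mutants, Gstt1 in HER2 mutants, Gstm7 in double mutants and the Nqo1 interaction. The other 19 were lost in at least 1, and of 122 pairs without a call 19 gained one. No direction of a call reversed. The cause of these moves was not tested. In a fit of only the groups compared, 13 redox genes were called in PIK3CA mutants against WT (of the named genes, Gclm, Gsr, Gpx1, Gstm2, Mgst3 and Nqo1 gained a call), 2 in HER2 mutants against WT, 6 in double mutants against WT, 0 between double and HER2 mutants and 1 between HER2 and PIK3CA mutants. The shares of all genes called in those fits were 17%, 2.02%, 11.1%, 0.14% and 2.02%, in that order. Between double and PIK3CA mutants such a fit called 1, beside 1.38% of all genes. Against WT, DESeq2 called 6 in PIK3CA, 11 in HER2 and 6 in double mutants, beside 7.73%, 15.5% and 17.1% of all genes. It called 5 between double and HER2, 3 between double and PIK3CA and 8 between HER2 and PIK3CA mutants. Beside them, DESeq2 called 7.09%, 2.93% and 9.18% of all genes. For the interaction it called 2, beside 4% of all genes. Without double mutants 2 and 3 together, an alternative chosen after seeing the data, 5 were called against WT and 5 against HER2 mutants, beside 8.85% and 4.56% of all genes.

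Leaving out 1 sample gave 1 to 4 calls for PIK3CA against WT, 3 to 8 for HER2 against WT, 2 to 5 for double against WT, 1 to 5 for double against HER2, 0 to 1 for double against PIK3CA, 1 to 7 for HER2 against PIK3CA and 1 to 3 for the interaction. The lowest counts of both single mutants against WT, 1 and 3, were without WT replicate 3, where the shares of all genes were also lowest, 1.68% and 3.09%. With a replicate block, the counts were 1 for double against HER2, 0 for double against PIK3CA, 1 for HER2 against PIK3CA and 1 for the interaction. Beside them stood 0.487%, 0.0783%, 2.28% and 0.144% of all genes. Against WT the block gave 3 for PIK3CA, 6 for HER2 and 3 for double mutants, beside 3.27%, 6.7% and 9.72%. Same-numbered samples did not correlate above 0.1 in every pair of any comparison, so the numbers were not used as pairs; a shared origin was not tested otherwise. The correlation of same-numbered double and HER2 mutants was 0.0711 to 0.273 (mean 0.157, against -0.04 for other pairs), and 2 of 4 correlated best with their own number. The interaction needs all genotypes, so it has no fit of only the groups compared. Genes with few reads, such as Gstp3, are limited by depth.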
